A study of Homo sapiens with 12 samples.

Results

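The 9 genes described here are the granzyme genes GZMA, GZMB, GZMH and GZMK, the perforin gene PRF1, the interferon gamma gene IFNG and the transcription factor genes TBX21, EOMES and RUNX3. They were taken by symbol from the authors' deposited table of 2587 genes, and all 9 are in it, each once. They were measured in Jurkat cells, an established human T-cell leukaemia line, as poly(A) RNA in 12 libraries. Cells knocked out for the RNA-binding protein HuR (HuRKO) were activated (3 libraries) or left at rest (3 libraries), and WT cells likewise. Activation was 24 h with 20 ng/mL of the protein kinase C activator PMA and 500 ng/mL of the calcium ionophore ionomycin, and resting cells had the same 24 h without either. The labels do not say whether the HuRKO cells are 1 clone, so HuR loss and a difference between clones cannot be told apart.

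Cytotoxic lymphocytes store granzymes, which are serine proteases, in granules together with perforin, which forms the pores through which they reach a target cell. The T-box factors TBX21 (T-bet) and EOMES and the Runt-domain factor RUNX3 are the main regulators of this programme and of IFNG in CD8+ T cells and natural killer (NK) cells. HuR, the product of ELAVL1, binds mRNAs at stretches rich in A and U, and IFNG is a textbook AU-rich mRNA.

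A group level below is in normalised counts, computed from the mean level and the 4 changes that the authors' deposited table gives for the gene. It has no value per library and no spread of its own. The evidence for a fold change is the table's false discovery rate (FDR), an adjusted p-value and not itself a spread. A gene is called changed at FDR below 0.05. The floor is 3 counts over the 3 libraries of a group, a level of 1. The depth per library is unknown, and the floor covers counting error only. The table holds only genes with a change of over 4-fold and FDR below 0.05 in at least 1 comparison, and a gene outside it is not shown to be unchanged. The knocked-out gene ELAVL1 was at 596 in resting HuRKO cells against 4042 in resting WT cells, and at 471 against 2552 in activated cells.

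The sequences that bear on the regulators and on HuR are shown first. In the 3′ untranslated region (UTR) of IFNG, copies of the AU-rich pentamer ATTTA begin 43, 53, 63, 107 and 162 bases after the stop codon. Its first 3 copies lie in a stretch of 28 bases (chr12:68155284-68155311, minus strand, GRCh38), and EOMES holds the nonamer ATTTATTTA (chr3:27716791-27716816, minus strand). Both are printed as DNA in the sense of the mRNA, with ATTTA in capitals.
IFNG 3′ UTR: tATTTAttaatATTTAacattATTTAta
EOMES 3′ UTR: gttctgtATTTATTTAttggggagac

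Of the 9 genes, IFNG had the most pentamers, 5 in a UTR of 585 bases or 8.55 per kb. Of 18893 genes with a 3′ UTR, 25.2% had at least as many and 2.37% were at least as dense. Per kb GZMA was denser, at 14.3 from 1 pentamer in 70 bases (0.646% of genes as dense), and GZMB equalled IFNG from 1 pentamer in 117 bases. EOMES and RUNX3 had 3 each, GZMK and TBX21 had 1 each, and GZMH and PRF1 had 0. At least 1 pentamer was found in 64.4% of those genes, and the nonamer, which among the 9 was found only in EOMES, in 6.33%. A match is a description of the letters, not a binding site.

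**Figure D1:**
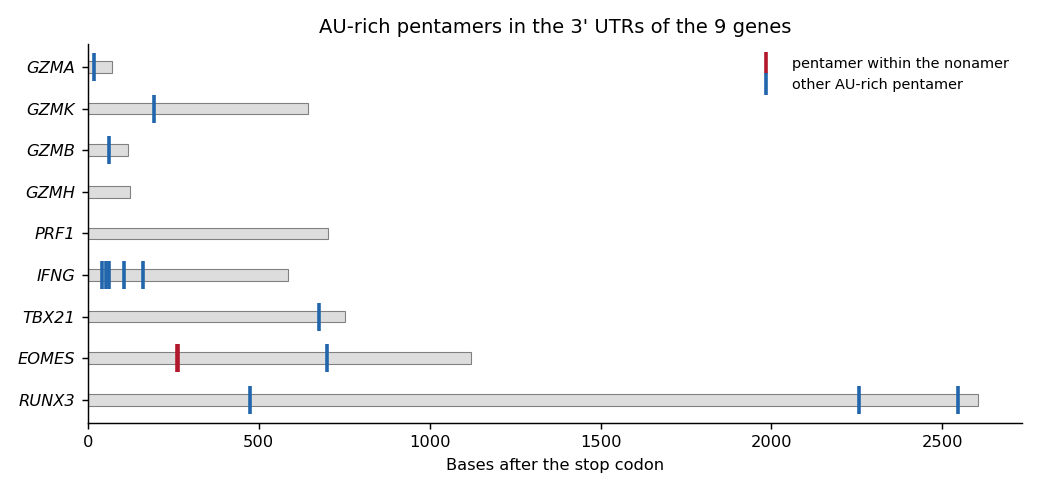
The horizontal axis gives bases after the stop codon, each grey bar is the 3′ UTR of 1 gene, and ticks mark ATTTA, in red where it is part of ATTTATTTA. The 5 ticks of IFNG lie in the first part of its 585 bases, and GZMH and PRF1 carry none.

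RefSeq promoter windows (GRCh38.p14, 250 bases before to 50 after the start) were given for 8 of the 9 genes. They number 9, since RUNX3 has an additional window. The windows were searched on both strands for the RUNX motif ACCACA, the T-box core TCACAC, the AP-1 motif TGANTCA and the NFAT core TTTCC. Of 35116 windows, 13.1% hold the RUNX motif, 12% the T-box core, 7.71% the AP-1 motif and 61.2% the NFAT core. The GZMB window holds all 4 motifs, and of the windows of these genes it is the only one with a T-box core or an AP-1 motif. RUNX motifs also lie in the windows of GZMA and PRF1 and in the RUNX3 window that is printed below, but not in the other RUNX3 window. The sites other than NFAT cores are printed below in the sense of the gene, with the motif of either strand in capitals.
GZMB AP-1 (chr14:24634392-24634410, minus strand): ccactcTGAGTCAtcagct
GZMB RUNX, distal (chr14:24634367-24634387, minus strand): gtgatgaTGTGGTcactgcat
GZMB T-box core (chr14:24634349-24634367, minus strand): tgattcTCACACaagcacc
GZMB RUNX, proximal (chr14:24634271-24634290, minus strand): atgagacACCACAaaaccag
GZMA RUNX (chr5:55102585-55102604, plus strand): aaaggaaACCACAtcctttt
PRF1 RUNX (chr10:70602791-70602810, minus strand): acctgtgACCACAgctgggg
RUNX3 RUNX, 2 copies (chr1:24965122-24965147, minus strand): ccctcaACCACAgaACCACAaggcca

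Positions are counted from the RefSeq start of each window. For GZMB, EOMES and RUNX3 this start lies inside the gene coordinates given below. The RUNX sites begin at -54 in GZMA, -62 in PRF1, -93 and -190 in GZMB, and -123 and -131 in RUNX3. The GZMB T-box core begins at -171 and its AP-1 motif at -214. The windows of GZMH and TBX21 and the other RUNX3 window (chr1:24930227-24930526) hold none of the 4 motifs. The EOMES window holds 5 NFAT cores and none of the other motifs, and that of IFNG holds 1 NFAT core.

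In activated HuRKO cells 4 of the 9 genes were higher than in activated WT cells, 4 were lower and 1 was not called, where 42.2% of all listed genes were higher and 35.4% lower. GZMA, GZMK, EOMES and RUNX3 were higher, by 4.74-fold to 83.9-fold. GZMB, GZMH, IFNG and TBX21 were lower, by 8.61-fold to 51.9-fold. PRF1 was not called. The T-box factors thus moved in opposite directions, and so did the granzymes.

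**Figure D2:**
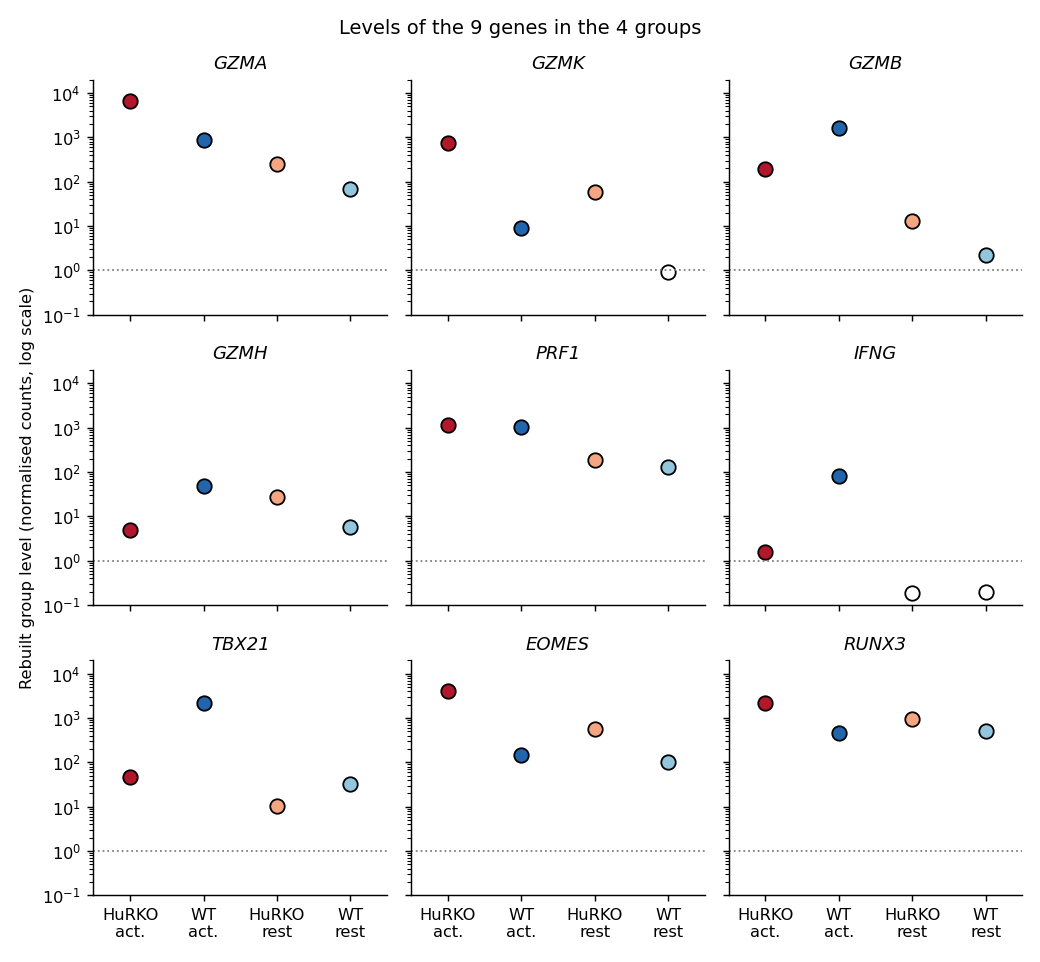
Each panel is 1 gene, with the 4 groups on the horizontal axis and the rebuilt group level in normalised counts on a log axis. Open circles lie below the dotted floor of 1 normalised count. TBX21 stands at 45.9 in activated HuRKO cells and 2230.4 in activated WT cells, and EOMES at 4128 and 151.

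TBX21 (ENSG00000073861.2, chr17:47733244-47746119, plus strand, hg38) encodes the factor that directs type 1 helper differentiation and IFNG transcription. Its level was 45.9 in activated HuRKO cells and 2230.4 in activated WT cells, and 10.4 in resting HuRKO cells and 33.2 in resting WT cells. It was high in activated WT cells only, with 96.1% of its summed level there. In the authors' deposited table the change was -5.60 on the log2 scale after activation (FDR 4.8e-165) and -1.68 at rest (FDR 1.3e-05). These were falls of 48.5-fold and 3.21-fold, and TBX21 was the only 1 of the 9 genes that was lower in HuRKO cells in both states.

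EOMES (ENSG00000163508.12, chr3:27715949-27722711, minus strand, hg38) encodes the second T-box factor of cytotoxic cells, linked to memory and NK differentiation. Its level was 4128 in activated HuRKO cells and 151 in activated WT cells, and 569.6 in resting HuRKO cells and 102 in resting WT cells. Both HuRKO groups were above both WT groups. The rises of 27.4-fold after activation and 5.59-fold at rest had log2 changes of 4.77 (FDR 1.8e-51) and 2.48 (FDR 2.7e-13) in the authors' deposited table.

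RUNX3 (ENSG00000020633.18, chr1:24899511-24965121, minus strand, hg38) encodes a Runt-domain factor that promotes the CD8 lineage and cytotoxic genes. Its level was 2161 in activated HuRKO cells and 456 in activated WT cells, and 976 in resting HuRKO cells and 504 in resting WT cells. As for EOMES, both HuRKO groups were above both WT groups. The authors' deposited table gave log2 changes of 2.24 after activation (FDR 8.3e-53) and 0.95 at rest (FDR 1.8e-09), rises of 4.74-fold and 1.94-fold.

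GZMA and GZMK are neighbours on the plus strand of chromosome 5, 68.1 kb apart with no protein-coding gene annotated between them. GZMA (ENSG00000145649.7, chr5:55102648-55110252, hg38) encodes a tryptase that cleaves after basic residues. It was at 6685 in activated HuRKO cells and 885 in activated WT cells, and at 255 in resting HuRKO cells and 67.5 in resting WT cells. Activated groups were above resting groups, and within each state HuRKO was above WT. In the authors' deposited table the HuRKO over WT changes were 2.92 on the log2 scale after activation (FDR 1.8e-24) and 1.92 at rest (FDR 5.2e-09), or 7.56-fold and 3.78-fold.

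GZMK (ENSG00000113088.5, chr5:55024253-55034570, hg38) encodes a second granzyme of trypsin-like specificity. It was at 755 in activated HuRKO cells and 8.99 in activated WT cells, and at 57.6 in resting HuRKO cells against a level below the floor in resting WT cells. Even the resting HuRKO group was above the activated WT group. GZMK rose 83.9-fold after activation (in the authors' deposited table, a log2 change of 6.39 at FDR 1.5e-35), the largest rise among the 9 genes in that comparison. At rest it rose at least 57.6-fold, or at least 19.2-fold with a floor of 3 normalised counts (FDR 2.9e-09 in the authors' deposited table).

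GZMB and GZMH are neighbours on the minus strand of chromosome 14, 21.3 kb apart with no other gene lying wholly between them in the annotation. Their coding sequences are 79.4% identical over 741 aligned bases. With the 3′ UTR joined to the coding sequence, they share a run of 106 bases with no mismatch. By the same measures the 5 other pairs among the 4 granzymes are 58.7% to 60.4% identical and share runs of at most 13 bases. How reads common to GZMB and GZMH were assigned is not given in the sources used here, so their separate values are uncertain.

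GZMB (ENSG00000100453.12, chr14:24630954-24634267, hg38) encodes the granzyme that cleaves after aspartate and activates caspases in the target cell. It was at 193 in activated HuRKO cells and 1665 in activated WT cells, and at 13.1 in resting HuRKO cells and 2.24 in resting WT cells. The order of the genotypes thus differed between the states. The authors' deposited table gave a log2 change of -3.11 after activation (FDR 9.5e-06), an 8.61-fold fall. At rest it gave 2.55 (FDR 0.027), a rise of 5.84-fold between levels near the floor.

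GZMH (ENSG00000100450.12, chr14:24606480-24609699, hg38) encodes a chymotrypsin-like granzyme made by NK cells. It was at 4.83 in activated HuRKO cells and 49.6 in activated WT cells, and at 27.2 in resting HuRKO cells and 5.84 in resting WT cells. The levels in activated HuRKO and resting WT cells lie close together, have no spread and were not compared, so they cannot be ordered. In the authors' deposited table GZMH changed by -3.36 after activation (FDR 2.3e-09) and by 2.22 at rest (FDR 0.00042) on the log2 scale. GZMH fell 10.3-fold in activated HuRKO cells and rose 4.66-fold at rest.

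PRF1 (ENSG00000180644.7, chr10:70597348-70602775, minus strand, hg38) encodes perforin. It was at 1148 in activated HuRKO cells and 1030.2 in activated WT cells, and at 188 in resting HuRKO cells and 132 in resting WT cells. The activated groups differed by 0.16 on the log2 scale (FDR 0.44 in the authors' deposited table) and were not called. The standard error, at most 0.20, is a bound computed from that FDR. The resting difference of 0.51, or 1.43-fold, passed (in the authors' deposited table, FDR 0.033).

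IFNG (ENSG00000111537.4, chr12:68154768-68159747, minus strand, hg38) encodes the effector cytokine interferon gamma. It was at 1.53 in activated HuRKO cells, just above the floor, and at 79.6 in activated WT cells. In resting HuRKO and resting WT cells it was below the floor, so no fold is given there. The activated difference was 51.9-fold (in the authors' deposited table, a log2 change of -5.70 at FDR 6.5e-13), or at least 26.5-fold with a floor of 3 normalised counts. IFNG-AS1, an antisense RNA gene, overlaps IFNG in the annotation, and 1 other antisense gene overlaps both GZMB and GZMH. Genes on the opposite strand also overlap GZMK and RUNX3. The libraries were directional, but the strand setting of the counting is not given in the sources used here.

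**Figure D3:**
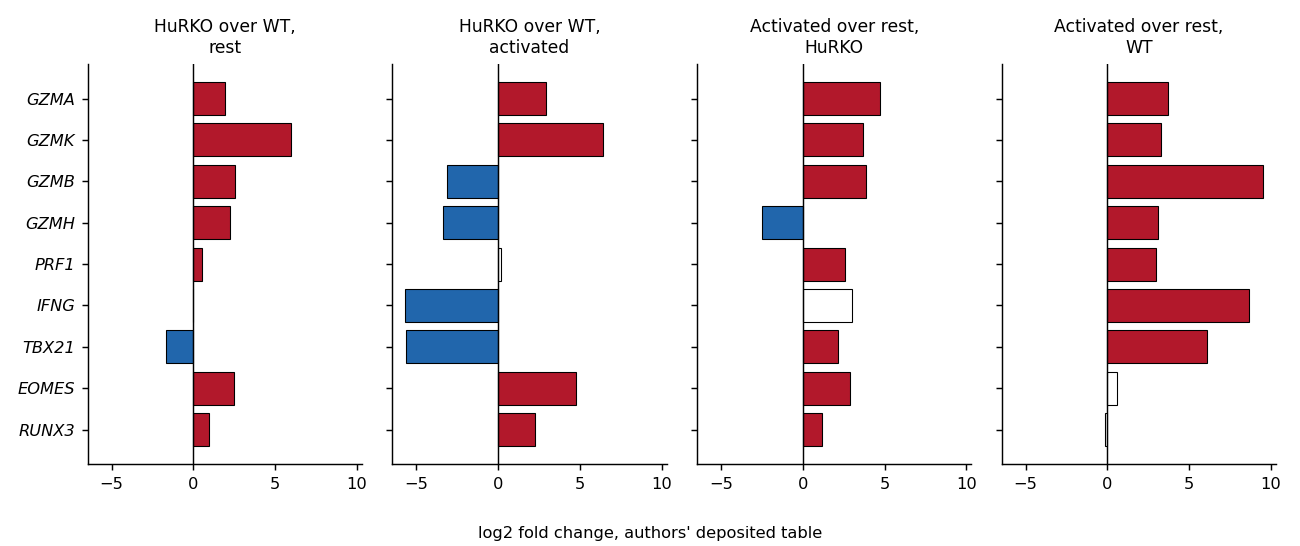
Bars give the log2 fold change of each gene in the authors' deposited table, 1 panel per comparison, with HuRKO over WT on the left and activated over rest on the right. Red bars are higher and blue bars lower at FDR below 0.05, and white bars are not called. In activated cells 4 genes are higher and 4 lower in HuRKO.

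Counted over the 9 genes, 7 were higher in resting HuRKO than in resting WT cells, TBX21 was lower and IFNG was not called. Among all 2587 listed genes 40.5% were called in that comparison, 25% higher and 15.4% lower. With FDR below 0.01 the count of higher genes was 5, since GZMB and PRF1 no longer passed. At FDR below 0.05, 4 genes were higher by at least 4-fold, GZMB, GZMH, GZMK and EOMES. After activation 4 were higher and 4 lower, against 42.2% and 35.4% of all listed genes. That total of 8 of 9 is close to the 77.6% of all listed genes called there. The median log2 change of the 9 genes was 1.92 at rest, against 0.18 over all listed genes, and 0.16 after activation, against 0.36.

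Activation in WT cells gives the response of the line with HuR present. GZMA, GZMB, GZMH, GZMK, PRF1, IFNG and TBX21 rose and 0 genes fell, where 73.9% of all listed genes were called, 52% rising and 21.8% falling. The induction was large for GZMB, at 1665 in activated against 2.24 in resting WT cells, or 743-fold. TBX21 rose 67.1-fold, GZMA 13.1-fold, GZMH 8.49-fold and PRF1 7.83-fold. IFNG rose at least 79.6-fold and GZMK at least 8.99-fold from below the floor. In the authors' deposited table the log2 changes were 9.54 for GZMB (FDR 3.7e-26), 6.07 for TBX21 (FDR 8.2e-163) and 8.67 for IFNG (FDR 2.9e-11). EOMES, with a log2 change of 0.57 (FDR 0.14), and RUNX3, with -0.14 (FDR 0.45), were not called in the authors' deposited table.

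In HuRKO cells activation raised GZMA, GZMB, GZMK, PRF1, TBX21, EOMES and RUNX3 and lowered GZMH, while 76.7% of all listed genes were called, 58.1% rising and 18.5% falling. GZMA rose 26.2-fold, GZMB 14.8-fold, GZMK 13.1-fold, EOMES 7.25-fold, PRF1 6.11-fold, TBX21 4.43-fold and RUNX3 2.21-fold. GZMH was at 4.83 in activated against 27.2 in resting HuRKO cells, a fall of 5.64-fold (in the authors' deposited table, a log2 change of -2.50 at FDR 1.5e-05). IFNG had a log2 change of 3.0 between a level of 1.53 in activated and one below the floor in resting HuRKO cells (FDR 0.052 in the authors' deposited table). The log2 changes in the authors' deposited table were 4.71 for GZMA (FDR 3.4e-61), 2.86 for EOMES (FDR 5.3e-20) and 1.15 for RUNX3 (FDR 2.9e-15).

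The deposited table has no test of the difference between the HuRKO and WT responses. It was tested here for every gene with a conservative two-sided Wald test on a normal approximation, in which each FDR sets an upper bound on the standard error. The threshold was 0.05 after Bonferroni adjustment over 58780 annotated genes. Of the 9 genes 4 passed, GZMH and TBX21 with a more negative and EOMES and RUNX3 with a more positive response in HuRKO cells. Of all genes tested 20.4% passed, 10.6% with a more negative and 9.89% with a more positive response. GZMH responded with -2.50 on the log2 scale in HuRKO and 3.09 in WT cells, a difference of -5.58 with a standard error of at most 0.80. It was the only 1 of the 9 that rose in WT and fell in HuRKO cells. TBX21 responded with 2.15 in HuRKO and 6.07 in WT cells, a difference of -3.92 with a standard error of at most 0.41. For EOMES the difference was 2.29 with a standard error of at most 0.46, and for RUNX3 it was 1.29 with at most 0.22.

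The remaining 5 genes did not pass, which does not show that their responses were alike. GZMB had a difference as large as that of GZMH, at -5.65, with a standard error of up to 1.16. The difference for IFNG was -5.67 with a standard error of up to 2.02, and its resting levels lay below the floor in both genotypes. The responses of GZMA, GZMK and PRF1 differed by 1.00, 0.41 and -0.36, with standard errors of at most 0.42, 1.13 and 0.26. The normal approximation rests on 3 libraries a group and was not checked near the floor. EOMES no longer passed with the larger of both variance estimates, and GZMA, GZMB and IFNG also passed with Benjamini-Hochberg adjustment over the table.

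**Figure D4:**
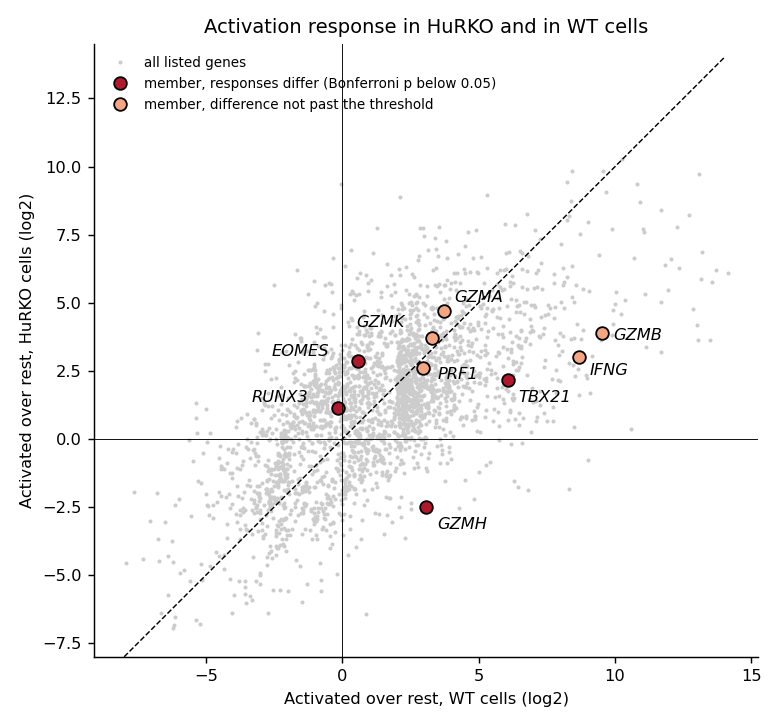
The horizontal axis is the log2 response to activation in WT cells and the vertical axis that in HuRKO cells, for all 2587 listed genes (grey) and the 9 genes (large circles); the dashed line marks equal responses. GZMH lies below 0 on the vertical axis, TBX21 lies below the dashed line, and EOMES and RUNX3 lie above it, close to 0 on the horizontal axis.

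Levels of different genes were compared per kb of annotated exon. In activated HuRKO cells GZMA was highest at 7478 per kb, followed by EOMES at 1129, then GZMK at 481, RUNX3 at 478, PRF1 at 453 and GZMB at 137. TBX21 at 17.6 per kb, GZMH at 5.08 and IFNG at 1.26 were lowest. In activated WT cells the order began with GZMB at 1180.2 per kb, GZMA at 989.7 and TBX21 at 853, then PRF1 at 407 and RUNX3 at 101. IFNG at 65.3 per kb, GZMH at 52.1, EOMES at 41.2 and GZMK at 5.73 closed it. No spread is known for these levels, so neighbours such as GZMK, RUNX3 and PRF1 in HuRKO cells cannot be ordered.

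In resting HuRKO cells the order per kb was GZMA at 285, RUNX3 at 216, EOMES at 156, PRF1 at 74.2, GZMK at 36.7, GZMH at 28.6, GZMB at 9.27 and TBX21 at 3.96. In resting WT cells it was RUNX3 at 111, GZMA at 75.5, PRF1 at 51.9, EOMES at 27.9, TBX21 at 12.7, GZMH at 6.14 and GZMB at 1.59. IFNG was below the floor in HuRKO and WT cells, and GZMK in WT cells. EOMES was thus among the 4 highest of the 9 genes per kb in 3 of the groups and among the lowest in activated WT cells, the only group in which TBX21 exceeded it per kb.

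The genes nearest to 3 of the 9 in pattern over the 4 group levels were taken among 1539 protein-coding genes above the floor in every group. Likeness is the Euclidean distance of log2 levels centred per gene. For EOMES they were CD93, a surface glycoprotein, at a distance of 0.65, the transcription factor TOX2 at 0.73 and the sialic acid-binding lectin SIGLEC6 at 0.75. TOX2 was at 1953 in activated HuRKO cells against 53.6 in activated WT cells. For TBX21 the nearest were PAX8, the prostacyclin receptor PTGIR and CD274 (PD-L1), at 0.91, 1.00 and 1.09. For GZMA they were FAM131B, EPAS1 and SOX13, at 0.35, 0.61 and 0.62.

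Of 21 further genes of granules and target killing, 9 are in the table, and 8 of these rose and 1 fell on activation in HuRKO cells, and likewise in WT cells. Of all listed genes 76.7% were called on activation in HuRKO and 73.9% in WT cells. The death ligand gene TNFSF10 (TRAIL) rose 18.6-fold in HuRKO and 18.6-fold in WT cells. In activated HuRKO against activated WT cells 5 were higher and 2 lower, where 42.2% of all listed genes were higher and 35.4% lower. GZMM, a granzyme gene outside the clusters above, was at 487 against 37.9 and the pore-forming granulysin gene GNLY at 80.2 against 7.10. SRGN, whose product serglycin is the proteoglycan core that packs granzymes, was at 390.1 against 2434.

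At rest 3 of these 9 genes were higher in HuRKO cells and SRGN was lower, at 173 against 599 in WT cells. Of all listed genes 25% were higher and 15.4% lower at rest. GZMM was at 197 in resting HuRKO against 13.3 in resting WT cells (in the authors' deposited table, a log2 change of 3.89 at FDR 1.5e-29). The median log2 change of the 9 was 0.51 at rest, against 0.18 over all listed genes, and 0.51 after activation, against 0.36. A list of other granule and mast cell serine proteases had 2 of 12 genes in the table, GZMM and CTSG, and CTSG was not called between genotypes in either state.

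Of 22 receptors of NK and cytotoxic cells, 10 are in the table. Activation raised 8 and lowered 1 of them in HuRKO cells, and the same counts were found in WT cells. Of all listed genes 58.1% rose and 18.5% fell in HuRKO cells, and 52% and 21.8% in WT cells. CRTAM, an adhesion receptor of activated cytotoxic cells, was at 327 in activated HuRKO against 1432 in activated WT cells, and the NKG2D gene KLRK1 at 9.88 against 70.8. CD8B, at 7.25 against a level below the floor, and NCAM1, at 25.2 against 5.29, went the other way. In activated cells 3 of the 10 were higher and 3 lower in HuRKO, where 42.2% of all listed genes were higher and 35.4% lower. At rest 2 were higher, the adhesion genes NCAM1 at 21.5 against 3.81 and CD226 at 907 against 596, and 0 were lower. Of all listed genes 25% were higher and 15.4% lower at rest.

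Of 26 receptor and signalling genes listed as inputs to IFNG and TBX21, 9 are in the table. They include the chemokine receptor gene CXCR3, which is not such an input. After activation 2 of these were higher and 6 lower in HuRKO cells, where 42.2% of all listed genes were higher and 35.4% lower. At rest 1 was higher, 4 were lower and 4 were not called, where 25% of all listed genes were higher and 15.4% lower. CXCR3 was among the lower genes, at 141 in resting HuRKO against 483 in resting WT cells. The interleukin 21 receptor gene IL21R was at 617 in activated HuRKO against 7856 in activated WT cells, and the calcium-driven factor gene NFATC1 at 1269.6 against 6512. IL12RB2, a chain of the interleukin 12 receptor, went the other way, at 28.8 against 2.05. The median log2 change of the 9 was -1.58 after activation, against 0.36 over all listed genes.

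Among 27 other transcription factors of effector T and NK cells, 20 are in the table, and after activation 6 were higher and 11 lower in HuRKO cells. NR4A2, NR4A1 and EGR3, genes of early activation, were at 33.3, 94.8 and 117 in activated HuRKO against 629, 1683 and 1472 in activated WT cells. TOX2 was higher. At rest 2 were higher, TOX2 and IKZF2. Of 24 further T-box and RUNX family genes and corepressor genes, 2 are in the table. TBX1, a T-box gene, was at 13.9 in activated HuRKO against 2.71 in activated WT cells. CBFA2T3, a corepressor gene of the ETO family and no relative of the 3 regulators, was at 1751 against 239.

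**Figure D5:**
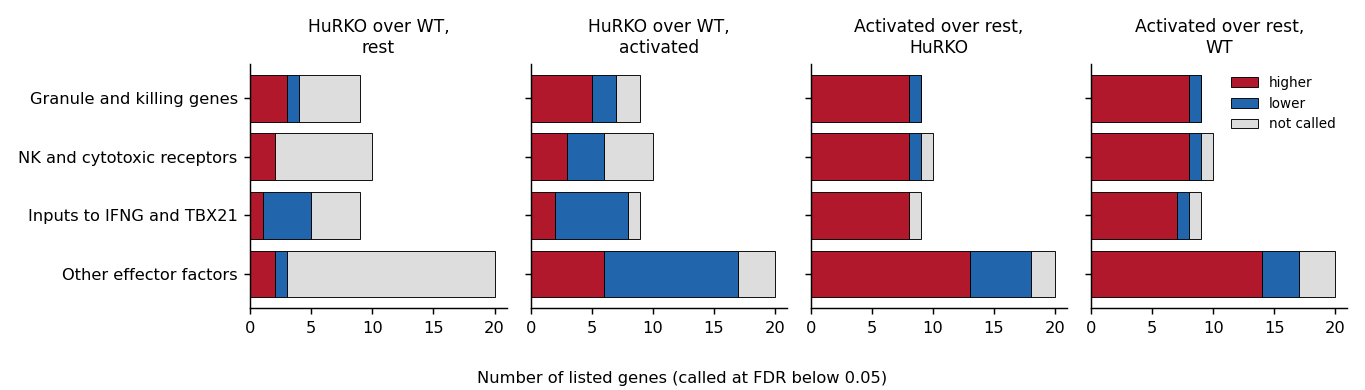
Bars count the listed genes of 4 gene lists that were higher (red), lower (blue) or not called (grey) at FDR below 0.05, with 1 panel per comparison. In activated HuRKO against activated WT cells, the list of inputs to IFNG and TBX21 holds 2 higher and 6 lower genes of 9. That list also holds CXCR3.

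Genes that mark other cells moved with the genotype too, and their part in these results was not tested. Of 10 B-cell genes 2 are in the table, CD79B and IGHM. Their summed level was 314 in activated HuRKO and 54.3 in activated WT cells, and 25.4 in resting HuRKO and 5.17 in resting WT cells. IGHM alone was at 297 against 34.5 in activated cells, where CD79B was not called between genotypes. In resting HuRKO against resting WT cells IGHM was at 15.4 against 3.76 and CD79B at 10.1 against 1.41. Of 10 monocyte and macrophage genes 2 are in the table, CSF1R and ITGAM, with sums of 106 and 74.3 in activated HuRKO and WT cells and 10.04 and 1.10 in resting ones; in resting WT cells both were below the floor. Of 10 erythroid genes 3 are in the table, with sums of 55.5 and 27.7 in activated HuRKO and WT cells and 48.5 and 24.4 in resting ones. Within that list the alpha-globin genes HBA1 and HBA2 were 17.1-fold and 15.5-fold higher in resting HuRKO than in resting WT cells, and TFR2 was at least 21.5-fold lower. The NK receptor sums were 6684 and 7726 in activated HuRKO and WT cells and 1020.0 and 665 in resting ones. Of 17 T-cell identity genes 7 are in the table, all above the floor in every group, and they too differed between genotypes. At rest 2 were higher and 3 lower in HuRKO cells, where 25% of all listed genes were higher and 15.4% lower. The T-cell receptor gene TRAC was 6.36-fold, CD2 4.63-fold and CD7 1.60-fold lower at rest, and CD4 was 2.37-fold higher. After activation 4 were higher and 2 lower, where 42.2% of all listed genes were higher and 35.4% lower. THEMIS was 17.6-fold, CD28 6.74-fold, CD4 6.64-fold and PTPRC 4.17-fold higher, and the 2 lower genes changed less than these. The other genes of these lists are not in the table, so their levels are unknown. In bulk RNA, fewer cells of a type and less RNA per cell cannot be told apart.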

How the data were processed

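Jurkat poly(A) RNA was measured in 12 libraries, 4 groups of 3, grouped by title. Per the submitters' processing notes, the build was hg38 and the tools included TopHat and Bowtie2; the read counter, its handling of strand and the test used were not given in the sources used here. The table was deposited by the authors as comparisons: a mean signal in normalised counts, 4 fold changes taken as log2 values, and 4 FDRs, which are p-values adjusted by the authors. The header gives no log base. Base 2 was inferred, since each gene's largest called change is at least 2.00, that is 4-fold. No value per library was used, and 0 columns per sample were unmapped. Nothing says that replicates were separate cultures, so an FDR may measure technical spread only.

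Group levels were computed as the values that 4 equal groups must have given the mean and fold changes, which close to 7.1e-14. Folds against a group below 1 normalised count are bounds. A standard error was bounded by the fold change over the normal quantile of its FDR. The Wald test of response differences took the smaller of both variance sums, was checked on simulated counts, and left out genes below the floor in 3 or 4 groups, leaving 2558. Annotation was GENCODE 29 (2577 of 2587 IDs matched without version); promoters were from RefSeq. UTRs and coding sequences are those of 1 APPRIS principal transcript per gene where annotated. Python 3.11.15, SciPy 1.17.1 and Biopython 1.88 were used.

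The 9 genes and the 10 other lists were chosen with earlier results of these data known. Genes named from a list are the up to 4 called genes with the largest change in a comparison; likeness was computed for EOMES, TBX21 and GZMA. Alternatives were a stricter FDR, minimum folds, other floors, another log base, and other variance sums and adjustments. Some genes of these lists are not reported here.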

Additional observations from a re-analysis of the deposited data

Results flagged for a closer look

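The activation response differed between HuRKO and WT cells for 4 of the 9 genes by the Wald test described above. The difference, HuRKO minus WT on the log2 scale, was -5.58 for GZMH, -3.92 for TBX21, 2.29 for EOMES and 1.29 for RUNX3. GZMH rose in WT cells and fell in HuRKO cells, and how reads common to GZMB and GZMH were assigned is unknown. TBX21 rose in both genotypes. EOMES and RUNX3 rose in HuRKO cells and were not called in WT cells.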

How the results depend on the processing

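The counts of the 9 genes called in the 4 comparisons stayed within 1.5 times under FDR below 0.01 and under a minimum of 2-fold, and so did the counts over the other lists under FDR below 0.01. With a minimum of 4-fold, the genes called at rest in HuRKO against WT cells numbered 4 in place of 8, and the other 3 comparisons stayed within 1.5 times. Benjamini-Hochberg adjustment over the table, in place of Bonferroni over all annotated genes, gave 7 genes whose responses differed in place of 4. The larger variance sum gave 3, without EOMES. With a floor of 3 normalised counts, the bound for GZMK on activation in WT cells was at least 3-fold in place of 8.99-fold, and that for IFNG at least 26.5-fold in place of 79.6-fold. If the fold changes were on base e, folds with both groups above the floor would be larger, as for GZMA in activated HuRKO against activated WT cells, 18.5-fold in place of 7.56-fold. More groups would lie below the floor, and some bounds would be smaller: GZMB at rest at least 1.65-fold in place of 5.84-fold, GZMK at rest at least 19.6-fold in place of 57.6-fold, and GZMK on activation in WT cells at least 1.34-fold in place of 8.99-fold. Directions and FDRs do not depend on the base. The fold of IFNG on activation in HuRKO cells could not be given under either of these settings, since both levels then lay below the floor. No paired analysis was possible because the table holds comparisons of groups and no value per library, and for the same reason no replicate was left out. Depth is unknown and limits GZMK, GZMB and IFNG in resting cells.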
